A study of Homo sapiens with 4 samples.

Results

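The genes of the pre-B cell receptor and its first signaling steps, VPREB1, IGLL1, CD79A, CD79B, BLNK and SYK, were examined in the H3K27ac ChIP-seq of 2 B-cell precursor acute lymphoblastic leukemia (BCP-ALL) cell lines. The 6 genes were chosen by name. Each was given a window that holds its hg19 gene body, with ends rounded to 1 kb, and 10 kb on each side, and every deposited peak that overlapped the window by at least 1 bp was taken. This gave 25 of the 44626 peaks of REH and 34 of the 74504 peaks of 697. REH carries the ETV6/RUNX1 fusion and has lost the other ETV6 allele, while 697 has no ETV6/RUNX1 fusion. Both lines grew untreated in RPMI with serum, each contributed 1 ChIP library and 1 input library, and each stands for a single leukemia. After removal of duplicate tags, 65241657 ChIP tags remained in REH and 68911420 in 697. With 1 library per line, no difference below has a replicate check, and no test between the lines was possible. All distances are measured from the rounded 5′ end of the gene in the direction of transcription.

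A B-cell precursor that has joined a heavy chain gene shows the chain on its surface together with a surrogate light chain, made of VpreB (VPREB1) and λ5 (IGLL1). The chains that carry the signal, Igα (CD79A) and Igβ (CD79B), recruit the tyrosine kinase SYK, which phosphorylates the adaptor BLNK, and from there the signal reaches proliferation and then light chain gene recombination. H3K27ac, acetylation of lysine 27 of histone H3, marks active promoters and enhancers, and a peak here is a region where ChIP fragments exceeded a local background from the input. A peak list does not measure transcription.

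Both lines had peaks in all 6 windows. For comparison, of the 30 kb bins of the genome with a peak in either line, 55.6% had a peak in both, and of the 100 kb bins 69.2%. At a −log10(p) of at least 10, each line had peaks in 2 windows, and only VPREB1 had them in both lines. At that threshold 10.5% of the 30 kb bins and 19.5% of the 100 kb bins with a peak in either line had a peak in both. A peak spanned the 5′ end of 6 of the 6 genes in 697 and of 5 in REH, and the exception was VPREB1. The share of all genes with a peak over the 5′ end was not computed, so these counts have no background beside them. Peaks covered 32.4% of the 316000 bp of the windows in REH and 32.8% in 697, a ratio of 697 to REH of 1.01, where the summed length of all peaks stood at 1.49. This near equality depended on the flanks and on the peaks kept. With no flank the percents were 29.2% in REH and 23.3% in 697, and with 50 kb on each side 19.3% and 28.8%. At an FDR of at most 5% they were 32.3% and 25.4%. By the rule that a gene differs when only 1 line has a peak or when the covered bases are at least 2 times apart, 1 of the 6 genes differed, VPREB1, with more bases covered in 697. This count was 0 when a ratio of 3 or a peak in 1 line alone was required, and it was between 1 and 3 under the other alternatives. The same rule held in 67.1% of the 30 kb bins and in 60.1% of the 100 kb bins with a peak in either line, and in 40.9% and 42.3% of those with a peak in both. The median 30 kb bin with a peak in both lines had 1893 bp covered in REH and 2548 bp in 697. Every gene window had more bases covered, so the count of genes and these shares are not like for like. The map of the peaks at each gene shows these positions.

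**Figure D1:**
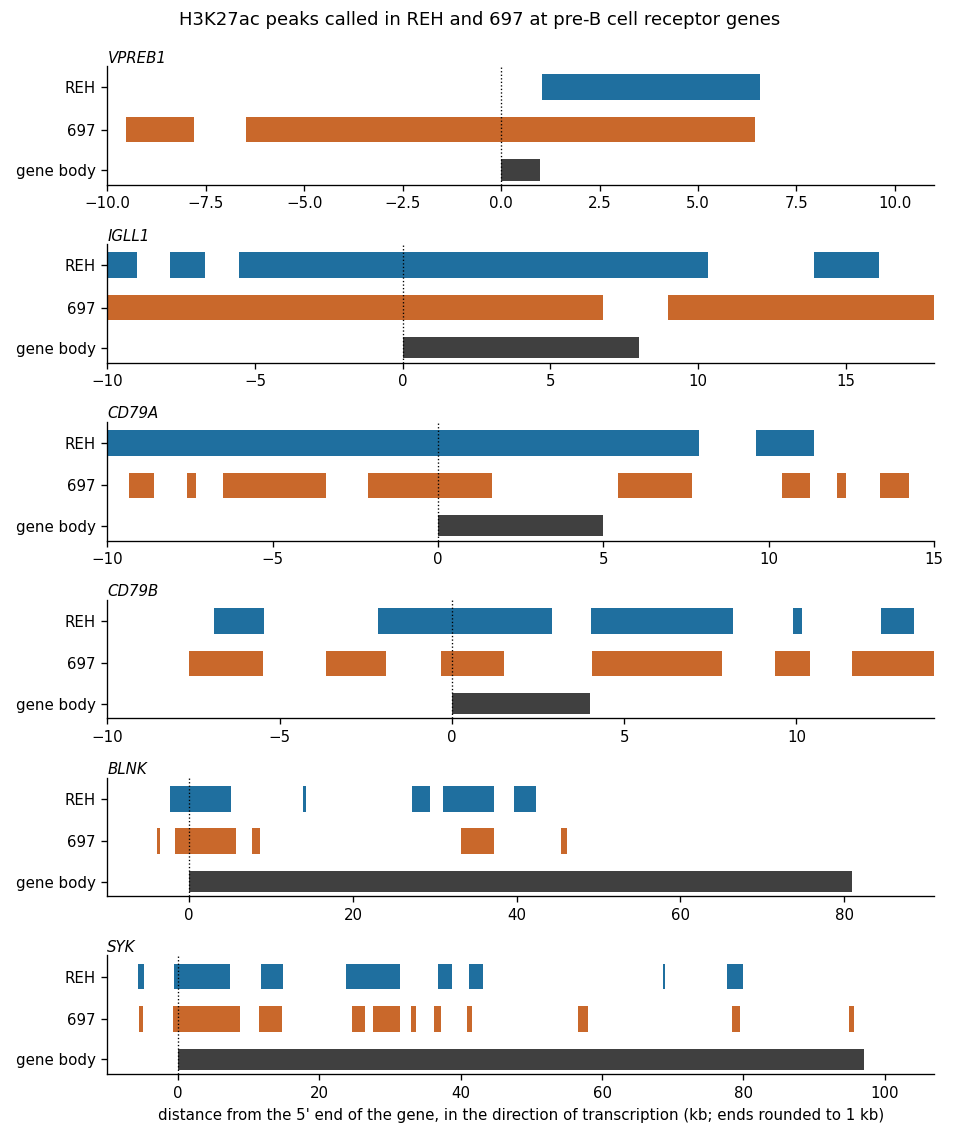
Peaks of REH (blue) and 697 (orange) in the 6 windows, with the gene body in black. The horizontal axis is the distance from the rounded 5′ end (dotted line) in kb, in the direction of transcription. A peak crosses the dotted line in both lines at 5 genes, and at VPREB1 in 697 only.

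The surrogate light chain genes VPREB1 and IGLL1 lie on chromosome 22, and VPREB1 sits among the variable segments of the immunoglobulin lambda locus. With all deposited peaks and the 10 kb flanks, VPREB1 was the gene at which the covered bases of the lines were furthest apart, while at an FDR of at most 5% CD79B stood further apart (a ratio of 4.13 against 2.66) and at a −log10(p) of at least 10 IGLL1 and SYK each had a peak in 1 line only. REH had 1 peak of 5514 bp, from 22600050 to 22605563. The 697 line had a peak of 12947 bp, from 22592509 to 22605455, and another of 1732 bp, from 22589471 to 22591202. The REH peak therefore began 1050 bp past the rounded 5′ end and 50 bp past the rounded 3′ end, so that the gene body was uncovered in REH and wholly covered in 697. Because the gene ends are rounded, whether the REH peak touches the last bases of the gene cannot be told. Peaks covered 5514 bp (26.3%) of the window in REH but 14679 bp (69.9%) in 697, which is 2.66 times as many. Downstream of the gene the lines were alike, since 98.0% of the bases covered in REH were also covered in 697 and the peaks ended 108 bp apart. The difference lay upstream, where 697 covered 8224 bp of the 10 kb before the gene and REH covered 0 bp.

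The stretch without a REH peak reached far beyond this window. The nearest REH peak before VPREB1 ended at 22511559, which left 88490 bp of the locus without a REH peak. Other stretches between REH peaks were not measured, so whether this length is unusual cannot be said. In the same stretch 697 had 13 peaks over 37735 bp. The copy number of this stretch was not analysed here in either line. The VPREB1 call was lost when a ratio of 3 or a peak in 1 line alone was required, and at a −log10(p) of at least 10 its direction turned, because the long 697 peak, with a deposited −log10(p) of 3.85, was then dropped. Whether the deposited p-value, q-value, pileup and enrichment describe the whole length of a broad peak was not tested, so the calls that turn at these thresholds rest on values of uncertain meaning.

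With all deposited peaks, IGLL1 had the most fully covered window in 697, and it had long peaks in both lines. REH had 4 peaks of 2195, 15884, 1171 and 2084 bp, and 697 had 2 peaks of 9697 and 18326 bp. Peaks covered 20251 bp (72.3%) of the window in REH but 25815 bp (92.2%) in 697, which is 1.27 times as many. Of the 30 kb bins with a 697 peak, 9 of 32007 were covered to at least the same percent, and for REH this held for 46 of 27055. The longest REH peak, from 23912672 to 23928555, ran over the whole gene body and both of its ends. The longest 697 peak, from 23916210 to 23934535, spanned the 5′ end but stopped inside the gene, and the next began at 8.98 kb, past the 3′ end. The 2185 bp in between, from 6.79 to 8.97 kb, had a peak in REH only and held the 3′ end of the gene. In the 10 kb before the gene 697 covered every base and REH covered 7727 bp. In the 10 kb after it the figures were 9024 bp in 697 and 4524 bp in REH. Within the gene body alone the order turned, since REH covered 8000 bp but 697 only 6791 bp, and at an FDR of at most 5% it turned as well (20251 bp in REH, 16791 bp in 697). At that FDR, 697 covered less of the IGLL1 window (60.0%) than of the VPREB1 window (69.9%). With all peaks, 697 also covered less of the gene body of IGLL1 (84.9%) than of that of VPREB1 (100.0%).

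The 250 bases before the start of VPREB1 and IGLL1 are shown because a peak lay over the 5′ end of VPREB1 in 697 only and over that of IGLL1 in both lines. They come from RefSeq on GRCh38.p14, which gave a promoter for 5 of the 6 genes, and were matched by gene name. The peaks are on hg19, so a base of the sequence cannot be set beside a base of a peak. Capitals mark matches on either strand to the EBF1 core CCCNNGGG, the E-box CAGNTG and the RUNX core TGTGGT or TGCGGT, which are letters recognised by factors of B-cell development.
VPREB1: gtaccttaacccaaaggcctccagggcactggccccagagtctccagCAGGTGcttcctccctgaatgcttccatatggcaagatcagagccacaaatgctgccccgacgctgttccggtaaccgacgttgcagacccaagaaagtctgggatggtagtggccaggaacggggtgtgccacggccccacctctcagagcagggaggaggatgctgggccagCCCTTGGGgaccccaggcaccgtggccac
IGLL1: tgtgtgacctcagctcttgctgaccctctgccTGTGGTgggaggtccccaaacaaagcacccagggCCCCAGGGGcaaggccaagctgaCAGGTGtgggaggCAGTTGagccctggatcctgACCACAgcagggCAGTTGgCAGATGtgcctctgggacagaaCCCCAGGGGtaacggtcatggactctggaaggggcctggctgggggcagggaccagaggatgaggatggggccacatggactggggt
The EBF1 core stood at 29 to 22 bases before the start of VPREB1 and at 2 places before IGLL1, each of them 2 overlapping matches on a shared stretch. It was found in 17.1% of the 35116 promoters of the table. The E-box was found once in VPREB1 and 4 times in IGLL1, and in 42.5% of all promoters. The RUNX core was found at 2 places in IGLL1 and not in VPREB1, and in 16.3% of all promoters. These matches are letters only, and binding of a factor was not measured.

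CD79A, which encodes Igα on chromosome 19, had its signal in 1 long peak in REH and in many short ones in 697. REH had 2 peaks, of 19759 and 1748 bp, and the longer ran from 42369142 to 42388900 over the whole gene body, past the upstream edge of the window and 7.9 kb past the 5′ end. It ranked 36th from the longest among the 44626 REH peaks. The 8 peaks of 697 measured between 269 and 3739 bp, and the longest, from 42378876 to 42382614, spanned the 5′ end. The covered length of the window was 19648 bp (78.6%) in REH against 12149 bp (48.6%) in 697, which are 1.62 times apart. Of the bases covered in 697, 90.6% were also covered in REH, whereas 56.0% of those in REH were covered in 697. The largest stretch with a peak in REH only, 3815 bp from 1.61 to 5.43 kb, took in most of the gene behind its start. Within the gene body REH covered 5000 of 5000 bp and 697 covered 1614 bp, a ratio of 3.1, and CD79A then differed by the rule. It also did so among peaks of at least 1000 bp, with a ratio of 2.15. The ratio fell to 1.27 when peaks within 1000 bp of each other were merged, which raised the 697 total to 15522 bp, and to 1.28 with 50 kb on each side. RPS19 and ARHGEF1 lie within 10 kb of CD79A in GENCODE v44 on GRCh38, and which of these genes a peak in the flanks belongs to was not tested.

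The 250 bases before the start of CD79A are shown with the same capitals, because a peak covered this end in both lines while the gene behind it was covered throughout in REH only.
CD79A: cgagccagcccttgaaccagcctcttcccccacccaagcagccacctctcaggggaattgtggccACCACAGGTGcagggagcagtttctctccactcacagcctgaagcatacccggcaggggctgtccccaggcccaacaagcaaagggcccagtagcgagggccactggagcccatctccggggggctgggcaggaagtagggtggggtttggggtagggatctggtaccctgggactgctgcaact
An E-box and a RUNX core overlapped here by 2 bases. No EBF1 core of these letters was found in this stretch.

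CD79B, which encodes Igβ on chromosome 17, had similar totals in both lines with peaks of different shape at its start. REH had 5 peaks between 242 and 5065 bp, and 697 had 6 peaks between 1021 and 3789 bp. Peaks covered 11820 bp (49.2%) of the window in REH but 12908 bp (53.8%) in 697, which are 1.09 times apart. The 5′ end lay under the longest REH peak, of 5065 bp from 62007083 to 62012147. In 697 it lay under a peak of 1840 bp, from 62008488 to 62010327, and a separate peak of 1742 bp lay farther upstream. The longest 697 peak, of 3789 bp from 62002156 to 62005944, lay past the 3′ end, and a REH peak of 4123 bp lay over the same place. Each peak of the window in either line overlapped a peak of the other. Within the gene body alone the order turned, since REH covered 2918 bp (73.0%) but 697 only 1513 bp (37.8%), a ratio of 1.93. The 697 peaks here were sensitive to the deposited q-value, since at an FDR of at most 5% the covered bases numbered 2861 bp in 697 but still 11820 bp in REH, a ratio of 4.13, so that CD79B then differed with REH as the larger. GH1 and SCN4A lie within 10 kb of CD79B on GRCh38.

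BLNK, the adaptor on chromosome 10, had its longest peak over the 5′ end in both lines. This peak measured 7458 bp in REH, from 98026911 to 98034368, and 7420 bp in 697, from 98026315 to 98033734. Inside the gene a second long peak was found in both lines, of 6285 bp from 31.0 to 37.3 kb in REH and of 4100 bp from 33.1 to 37.2 kb in 697. Of the other peaks none was shared. REH alone had peaks of 2173 bp at 27.2 to 29.4 kb, of 2651 bp at 39.7 to 42.3 kb and of 320 bp at 13.9 to 14.2 kb. The peaks found in 697 alone measured 781, 980 and 332 bp. Peaks covered 18887 bp (18.7%) of the window in REH but 13613 bp (13.5%) in 697, which are 1.39 times apart. With 50 kb on each side the order turned, with 47726 bp in REH and 51483 bp in 697. ZNF518A lies within 10 kb of BLNK on GRCh38, and which gene a peak in the flanks belongs to was not tested. No peak of either line lay behind 46.2 kb, in the rest of the 81000 bp body or in the 10 kb after it. The 250 bases before its start are shown because they held less G and C than those of the 3 genes above.
BLNK: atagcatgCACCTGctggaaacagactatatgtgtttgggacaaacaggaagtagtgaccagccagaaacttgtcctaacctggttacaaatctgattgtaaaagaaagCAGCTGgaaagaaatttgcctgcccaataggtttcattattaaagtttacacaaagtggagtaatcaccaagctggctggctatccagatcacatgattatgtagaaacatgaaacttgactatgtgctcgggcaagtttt
The capitals are 2 E-boxes, and neither an EBF1 core nor a RUNX core was found. The G and C content was 40.4% with 1 CG pair, against 62.4% with 8 in VPREB1, 63.6% with 1 in IGLL1 and 64.0% with 4 in CD79A, and the median of all promoters was 58.0% with 11.

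SYK, the kinase on chromosome 9, had the most peaks of the 6 genes, 8 in REH and 11 in 697, in the longest window (117000 bp). The peak over the 5′ end measured 8047 bp in REH, from 93563367 to 93571413, and 9513 bp in 697, from 93563297 to 93572809, and was the longest of the window in both. Peaks covered 26219 bp (22.4%) of the window in REH but 24547 bp (21.0%) in 697, which are 1.07 times apart. At a −log10(p) of at least 10 the order turned, with 10125 bp left in 697 and 0 bp in REH. The order of the peaks along the first part of the gene was shared. Both lines had a peak within the 10 kb upstream of the start, of 880 bp in REH and 672 bp in 697. Both had one inside the gene, of 3122 bp from 11.7 to 14.8 kb in REH and of 3211 bp from 11.5 to 14.7 kb in 697. The REH peak of 7709 bp from 23.7 to 31.4 kb faced a 697 peak of 1798 bp from 24.6 to 26.4 kb and another of 3811 bp that ended at the same 31.4 kb. REH peaks of 2022 bp (36.8 to 38.8 kb) and 1957 bp (41.2 to 43.1 kb) overlapped 697 peaks of 1064 bp (36.2 to 37.3 kb) and 805 bp (40.9 to 41.7 kb) only in part. Of these 2 REH peaks, 1554 and 1490 bp had a peak in REH only. Further into the gene, both lines had a peak of 2237 bp (77.7 to 79.9 kb, REH) or 1133 bp (78.3 to 79.5 kb, 697). REH alone had a peak of 245 bp at 68.7 kb, and 697 alone had peaks of 612, 1307 and 621 bp at 33.0, 56.7 and 95.0 kb. RefSeq lists 3 starts for SYK. A RUNX core was found before start 1, an E-box before starts 2 and 3, and an octamer core ATGCAAA, found in 3.94% of all promoters, before start 3. The bases after starts 1 and 3 were not found in the GENCODE v44 transcripts of SYK, so that only start 2 was matched to a transcript.

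**Figure D2:**
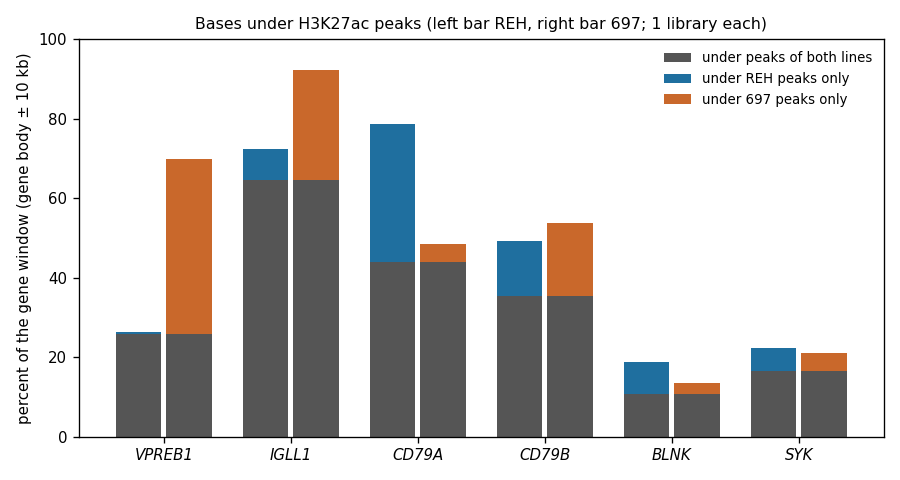
Percent of each window (vertical axis) under peaks of both lines (grey), of REH only (blue, left bars) and of 697 only (orange, right bars), 1 library per line. At VPREB1 nearly all covered bases of REH are also covered in 697, while at CD79A 8638 bp are covered in REH only and 1139 bp in 697 only.

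The order of the covered percent differed between the lines. In REH it ran from CD79A (78.6%) and IGLL1 (72.3%) over CD79B (49.2%) and VPREB1 (26.3%) to SYK (22.4%) and BLNK (18.7%). In 697 it ran from IGLL1 (92.2%) and VPREB1 (69.9%) over CD79B (53.8%) and CD79A (48.6%) to SYK (21.0%) and BLNK (13.5%). With all deposited peaks and the 10 kb flanks, the long genes BLNK and SYK came last in both lines. Their windows are 101000 and 117000 bp against 21000 to 28000 bp for the others. At an FDR of at most 5%, CD79B (11.9%) came last in 697, behind SYK (17.4%) and BLNK (13.5%). VPREB1 (69.9%) then came before IGLL1 (60.0%). In REH, VPREB1 came last with no flank (0.0%) or with 50 kb on each side (6.08%). Without replicates it cannot be said which neighbours in these orders differ. Against the genome and with all deposited peaks, the 4 short windows were densely covered. The median 30 kb bin with a peak of the line was covered to 5.31% in REH and 6.33% in 697. Between 0.118% (CD79A) and 5.06% (VPREB1) of such bins reached the covered percent of the short windows in REH, and between 0.0281% (IGLL1) and 2.1% (CD79A) in 697. Among 100 kb bins, with medians of 2.6% and 3.58%, the level of SYK was reached by 2.05% of bins in REH and 6.55% in 697, and that of BLNK by 3.32% and 14.4%. These shares describe windows placed on genes against bins placed anywhere.

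**Figure D3:**
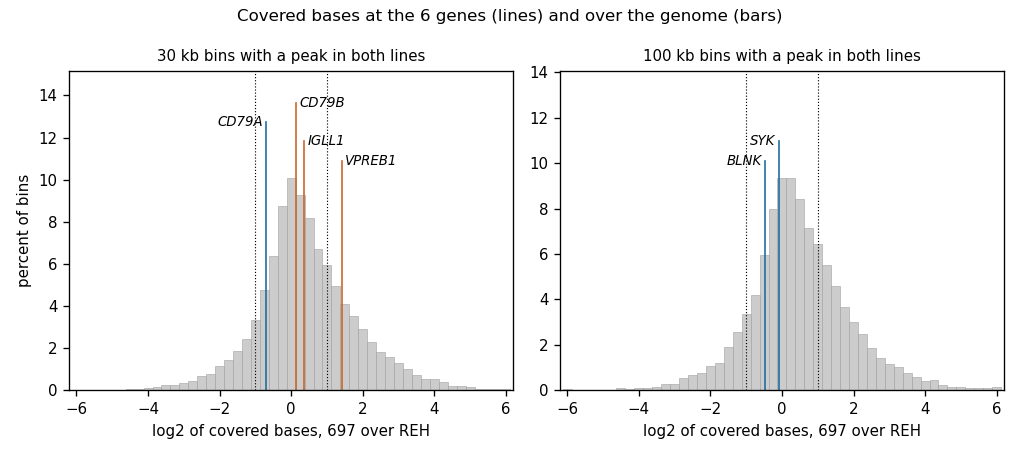
The log2 ratio of covered bases, 697 over REH, for all bins with a peak in both lines (bars, percent of bins, values beyond 6 drawn at 6) and for the 6 genes (vertical lines, orange where 697 is larger and blue where REH is larger). Dotted lines mark a ratio of 2 in either direction, and only VPREB1 lies past one of them. The median bin was less covered than the gene windows set beside it.

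Peaks at these genes were longer than most peaks of their line. Their median length was 2195 bp in REH and 1737 bp in 697, while all peaks had medians of 1060 and 871 bp. Peaks of 10 kb or more made up 0.587% of all REH peaks and 0.444% of all 697 peaks, and 2 of the 25 peaks in REH (IGLL1, CD79A) and 2 of the 34 in 697 (VPREB1, IGLL1) were of this kind. IGLL1 was thus the gene with such a peak in both lines, and VPREB1 and CD79A had one in a single line. The shortest peaks, of 242 bp in REH and 269 bp in 697, lay in the windows of CD79B and CD79A. In each line the longest peak of the window spanned the 5′ end at 5 of the 6 genes, with VPREB1 the exception in REH and CD79B in 697. The share over all genes was not computed for this count either.

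**Figure D4:**
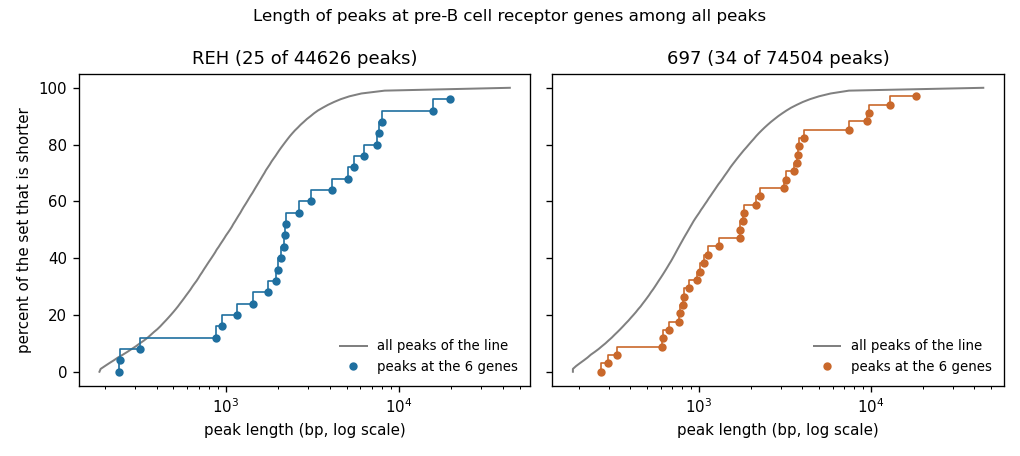
Percent of peaks (vertical axis) shorter than the length on the horizontal axis (bp, log scale), for all peaks of a line (grey curve) and for the peaks at the 6 genes (points joined by steps). The points lie to the right of the curve at nearly all lengths, with the longest at 19759 bp in REH and 18326 bp in 697.

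Most of these peaks had a counterpart in the other line. In REH, 21 of the 25 (84.0%) shared at least 1 bp with a 697 peak, where 64.1% of all REH peaks did. In 697, 25 of the 34 (73.5%) did so with a REH peak, where 38.9% of all 697 peaks did. Longer peaks overlap more often through their extent alone, and the part of length in these shares was not tested. Counted at their midpoints, 72.0% and 55.9% were shared, where 55.1% of all REH peaks and 31.6% of all 697 peaks were. At an FDR of at most 5% the shares were 66.7% in REH and 69.2% in 697, against 46.7% and 37.7% of all peaks. At a −log10(p) of at least 10, 0 of 4 REH peaks and 0 of 3 of 697 were shared, where 6.21% and 9.16% of all peaks were. The 4 REH peaks without a counterpart lay in BLNK (3) and SYK (1), and the 9 of 697 in BLNK (3), SYK (3), CD79A (2) and VPREB1 (1). By bases, 55.2% of all positions under a peak of either line in the 6 windows were under peaks of both, with the lowest share at VPREB1 (36.6%) and the highest at IGLL1 (64.5%). Over all peaks of the lists this share was 30.6%. Other genes of the pathway, such as LYN, BTK and PLCG2, and markers of other blood lineages have no hg19 positions in the sources used here and were not analysed here.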

How the data were processed

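H3K27ac ChIP-seq was performed on REH and 697 cells, 1 library each, with an input library per line. According to the Methods and the submitters' processing notes, alignment by the authors was to hg19. The Methods name the aligner as Bowtie, while Bowtie2 is recorded among the upstream tools. Peaks were called against the input in the broad mode of MACS (version 2.1.0.20150731 per the file headers, an earlier one in the Methods), at q-value cutoffs of 0.05 and 0.1. The authors deposited, for each peak, its length, its mean pileup signal, its fold enrichment as a ratio and its −log10 p-value and −log10 q-value. The rank correlation of pileup with length was 0.048 in REH and 0.03 in 697 over all peaks, and peaks were compared by position and length, with heights only listed.

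Windows were the hg19 gene bodies given in kb with 10 kb on each side. The bodies are at least as long as the genes in GENCODE v44 (736 to 96763 bp), except that of BLNK, which is 81000 bp against 82417 bp. Strands were taken from GENCODE v44. Covered bases were clipped to the window, and lengths are those of whole peaks. Genome bins were the non-overlapping 30 kb and 100 kb bins with a peak. Promoter sequences are the 250 bases before each RefSeq start, and 7 starts of 5 genes were searched for motifs. GENCODE and RefSeq are on GRCh38, and their coordinates were not combined with the peaks. Protein sequences were not used here.

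The 6 genes, the rules and the lists were chosen with earlier results of these data known, and all 6 genes are named. No test was run, since 1 library per line leaves no replicates. Alternatives covered thresholds on p and FDR, peak length, merging, equal peak numbers, flanks, the fold and the overlap. The scripts were tested on simulated data. Software was pandas 2.3.3, numpy 2.4.6, scipy 1.17.1 and matplotlib 3.10.9 on Python 3.11.15.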

Additional observations from a re-analysis of the deposited data

How the results depend on the processing

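With 1 library per line, leaving out a replicate was not possible. No paired analysis was possible because no replicates exist. Of 51 alternative values for the counts and percents over all 6 genes, 28 stayed within 1.5 times the count or within the 95% Wilson interval of the percent. The interval took single bases as units for covered percents and peaks as units for shared percents. Bases under the same peak are not independent, so this tally mixes unlike units and does not measure robustness. VPREB1 had more covered bases in 697 under every alternative but a −log10(p) of at least 10, at which 3 of the 34 697 peaks and 4 of the 25 REH peaks remained and the ratio was 3.18 with REH as the larger. At that threshold 2 genes had a peak in REH and 2 in 697, peaks covered 3.13% and 3.75% of the windows, 0.0% of the peaks were shared in either line, and 3 genes differed. At an FDR of at most 5%, 2 genes differed and the covered percent in 697 was 25.4%. Among peaks of at least 1000 bp, 2 genes differed, with 31.6% covered in REH and 30.3% in 697. Merging gave 33.9% in 697 and equal peak numbers 31.9%. With no flank 2 genes differed, with 29.2% covered in REH and 23.3% in 697. With 50 kb on each side 3 genes differed, with 19.3% and 28.8%, and IGLL1 (2.07) and CD79B (2.24) joined VPREB1 (5.81), all larger in 697. Required to be 3 times apart, 0 genes differed, and 0 had a peak in 1 line only. Scored at the midpoint, 55.9% of the 697 peaks were shared. Of the 30 kb bins with a peak in either line, the rule held in 67.1% with all peaks, 72.0% at the FDR, 95.2% at the −log10(p), 63.2% for peaks of at least 1000 bp, 57.8% at 3 times and 44.4% for a peak in 1 line only. It held in 74.7% of 5 kb bins, nearer to the short bodies without flanks, and in 60.1% of 100 kb and 56.1% of 200 kb bins, nearer to the windows with 50 kb flanks. Ratios were not computed where a line had no peak in a window. The lists hold the mean pileup of a peak but no tag count, so no counting interval was given.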

Other observations

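The deposited heights at these genes are given as values only. The rank correlation of pileup with length was -0.33 over the 25 REH peaks and -0.36 over the 34 of 697, peaks that share a library and in part a window, against 0.048 and 0.03 over all peaks. The other deposited values did not follow this. For fold enrichment with length it was 0.24 in REH and -0.015 in 697, against 0.064 and 0.031 over all peaks. For −log10(p) with length it was 0.06 and -0.21, against 0.092 and 0.065. The mean pileup of the 25 REH peaks ran from 11.27 to 63.91 with a median of 27.64, where all REH peaks had a median of 21.61. The 34 peaks of 697 ran from 7.76 to 49.64 with a median of 16.31, where all peaks of that line had a median of 14.08. The fold enrichment over the local background lay between 1.04 and 3.27 in REH and between 1.02 and 3.22 in 697. The highest REH enrichment, 3.27, belonged to the peak at the upstream edge of the IGLL1 window, and the highest of 697, 3.22, to a peak of 612 bp inside SYK that had no REH counterpart. The highest pileup in REH, 63.91, belonged to the peak of 245 bp inside SYK, which is among the shortest at these genes.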
